A study of Mus musculus with 24 samples.

Results

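Imprinted genes are expressed mainly from the chromosome inherited from 1 parent. The 42 genes described here are a named list of mouse imprinted genes, of which 20 are known as paternally expressed, 21 as maternally expressed, and 1, Gnas, as expressed from either parental allele depending on the transcript. They were found among 18194 genes that have a probe set of their own, meaning one annotated to a single gene symbol, and 40 of the 42 have such a probe set. H19 and Zrsr1 have none and are not analysed here. A probe set is a group of short probes on the array that report 1 transcript or a few related ones.

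Affymetrix expression arrays measured RNA of cells sorted from the marrow of 129ola mice, 8 to 12 weeks of age. Haematopoietic stem cells (HSC) were represented by 2 wildtype and 3 hypomorph arrays, myeloid progenitors (MP) by 3 wildtype and 3 hypomorph arrays, and B cell progenitors by 2 wildtype arrays, 13 in all. Wildtype is Dnmt1+/+, and hypomorph is Dnmt1-/chip, a null allele over an allele with reduced function, carried in every cell of the animal. Each array holds RNA of 35000 to 100000 sorted cells. The labels give neither the sex of the mice nor whether replicate arrays stand for different mice. The Y-linked gene Eif2s3y was at 8.68 and 2.35 in wildtype HSC, 9.35, 8.93 and 2.75 in wildtype MP, 9.22, 2.87 and 8.10 in hypomorph MP and 10.16 and 2.47 in B progenitors. It was at 9.31, 6.95 and 8.10 in hypomorph HSC, where Kdm5d, also Y-linked, was at 6.18, 3.28 and 6.09. The hypomorph HSC arrays thus differed in Y-linked RNA too. In the first 4 of these groups the replicate arrays thus did not all hold RNA of the same mice, and wildtype HSC array 2 is the one low in Y-linked RNA in its group. Xist, also sex-linked, ran from 12.38 to 12.86 on the arrays low in Eif2s3y. With high Eif2s3y it was at 11.96 in wildtype HSC, 12.08 and 11.66 in wildtype MP and 12.44 in hypomorph MP array 3. It was lower, with high Eif2s3y too, in B progenitor array 1 (4.61), hypomorph MP array 1 (8.13) and hypomorph HSC array 1 (9.83). Whether single arrays hold RNA of mice of both sexes was not tested. The p-values cover the spread between arrays, and the part of sex in the differences below was not tested. The comparisons ask how the imprinted genes differ between genotypes in each cell type, and between cell types.

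At an imprinted locus, cytosines in CG pairs of a control region are methylated on only 1 parental chromosome, a mark laid down in the egg or sperm. Dnmt1 is the enzyme that copies CG methylation onto the new strand each time DNA is replicated, so it is needed to keep the mark in dividing cells. Loss of methylation can raise a gene that is silenced on the methylated allele and can also lower a gene that depends on a methylated control region in cis, and neighbouring genes of 1 locus are often expressed from opposite parental chromosomes. Several imprinted genes are known as growth regulators, among them the growth factor Igf2 and the cyclin-dependent kinase inhibitor Cdkn1c, which is known for its part in HSC quiescence. Some genes of the list, such as Ube3a, are known to be imprinted in only some tissues. The arrays give the summed RNA of both alleles, so no allele could be followed.

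The promoters of 4 of the 5 imprinted genes whose genotype effects differed by a called amount between HSC and MP are shown because CG pairs are what Dnmt1 acts on. Each is the 300-base window from 250 bases before to 50 bases after the transcription start in RefSeq, build GRCm38.p6, 5′ to 3′ on the gene's strand, with CG pairs in capitals. These are sequences of the reference mouse, not of the 129ola animals.
Ndn, chr7:62348027-62348326, plus strand: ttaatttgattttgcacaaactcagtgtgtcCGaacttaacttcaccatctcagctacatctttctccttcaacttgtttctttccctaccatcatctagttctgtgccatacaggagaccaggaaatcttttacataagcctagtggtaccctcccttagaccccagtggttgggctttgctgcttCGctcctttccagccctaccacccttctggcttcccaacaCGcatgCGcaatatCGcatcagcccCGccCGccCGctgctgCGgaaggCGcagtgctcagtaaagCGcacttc
Peg3, chr7:6730370-6730669, minus strand: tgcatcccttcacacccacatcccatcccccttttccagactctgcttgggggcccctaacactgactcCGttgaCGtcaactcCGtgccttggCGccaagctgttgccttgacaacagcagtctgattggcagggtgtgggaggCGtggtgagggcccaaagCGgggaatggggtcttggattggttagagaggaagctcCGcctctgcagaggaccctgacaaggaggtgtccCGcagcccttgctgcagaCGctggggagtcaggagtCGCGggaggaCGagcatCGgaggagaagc
Meg3, chr12:109540746-109541045, plus strand: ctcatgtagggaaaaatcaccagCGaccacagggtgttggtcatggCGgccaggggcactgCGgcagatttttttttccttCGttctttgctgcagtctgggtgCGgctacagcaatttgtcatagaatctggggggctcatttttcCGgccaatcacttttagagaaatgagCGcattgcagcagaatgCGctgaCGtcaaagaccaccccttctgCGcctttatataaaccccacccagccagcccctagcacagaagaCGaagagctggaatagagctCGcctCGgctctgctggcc
Igf2r, chr17:12769657-12769956, minus strand: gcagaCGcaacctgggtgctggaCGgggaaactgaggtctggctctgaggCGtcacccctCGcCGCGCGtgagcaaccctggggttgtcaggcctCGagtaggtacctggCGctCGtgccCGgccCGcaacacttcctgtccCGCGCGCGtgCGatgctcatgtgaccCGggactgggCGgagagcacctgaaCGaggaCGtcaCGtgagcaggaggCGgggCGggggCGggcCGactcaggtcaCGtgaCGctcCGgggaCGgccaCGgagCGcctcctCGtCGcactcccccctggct
The Ndn window holds 11 CG pairs, that of Peg3 13, the printed one of Meg3 13 and that of Igf2r 34. The median was 7 over all 32851 windows of the table. Of all windows, 58.6% hold fewer CG pairs than that of Ndn. For Peg3 and the printed Meg3 window the share is 62.1%, and for Igf2r 92.3%. A second Meg3 window, not printed, holds 1 CG pair. The windows of Igf2, the gene not printed, hold 7, 24, 14 and 2. The windows of Peg3 and of its neighbour Usp29, which is transcribed from the opposite strand, share 263 bases. Of the 42 genes, 34 have 52 windows in the table, with a median of 14.5 CG pairs. The 6 letters TGCCGC, recognised in methylated form by the imprint-protecting zinc finger protein ZFP57, occurred on either strand in 11 of the 52 windows (21.2%), belonging to 10 genes, and in 11.6% of all windows. Overlapping Mest windows, with first bases 30737800 and 30737803, are counted separately among the 11. The letters hold a CG pair themselves, and the 52 windows hold more CG pairs than all windows. The part of CG content in the difference was not tested. Among the printed windows, that of Meg3 holds these letters. DNA methylation itself was not measured here.

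The values are log2 intensities. A gene was tested when at least 2 of the 13 arrays reached 4.64, the median of all values, on one of its probe sets, and the brightest such probe set stood for the gene. This kept 12765 genes and 27 of the imprinted genes, 10 paternally expressed, 16 maternally expressed and Gnas. Of the remaining genes with a probe set, 13 did not pass: Dlk1, Peg10, Nnat, Magel2, Rasgrf1, Mkrn3, Peg12, Usp29 and Nap1l5 of the paternally expressed genes, and Rian, Zim1, Asb4 and Qpct of the maternally expressed genes. Their values lay between 2.28 and 4.97. The values come with no detection call, so a dim gene could be at or above background. A gene is said to be called where the adjusted p from limma, over all 12765 genes, was under 0.05.

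The targeted gene bore out the labels. Dnmt1 ran from 11.59 to 11.80 in wildtype HSC and from 8.48 to 9.31 in hypomorph HSC, and from 11.30 to 11.73 in wildtype MP against 8.01 to 8.24 in hypomorph MP. It ran from 12.24 to 12.40 in B progenitors. The 10 HSC markers, of which 8 were measured, averaged 10.27 in wildtype HSC and 9.74 in hypomorph HSC, and at most 7.92 on any MP array. The MP markers averaged 12.04 in wildtype MP, and the B progenitor markers 11.34 in B progenitors and at most 4.94 elsewhere. The MP marker average was also higher in hypomorph HSC (8.84 to 9.20) than in wildtype HSC (7.67 to 8.30), without overlap. By log2 fold change, Ctsg (3.42), Ms4a3 (3.27) and Gata1 (1.33) were called higher. Klf1 (0.90), Gfi1 (0.78), Mpo (0.62), Elane (-0.12), Prtn3 (-0.20) and Csf1r (-0.71) were not called. Of the HSC markers, Fgd5 (-1.91) and Hlf (-1.55) fell and Slamf1 (1.05) rose. The rest were not called (-0.91 to -0.08). Over all genes tested, 5.44% fell and 5.37% rose. In RNA of sorted populations, fewer cells of a type and less RNA per cell cannot be told apart.

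In hypomorph HSC, 7 of the 27 tested imprinted genes fell and 1 rose. Those that fell were the paternally expressed Ndn, Peg3, Plagl1 and Igf2 and the maternally expressed Meg3, Grb10 and Igf2r, and Gatm, a maternally expressed gene, rose. Over all genes tested, 5.44% fell and 5.37% rose in this comparison, 10.8% together. Peg3 passed the filter through the 2 wildtype HSC arrays alone and Tfpi2 through 2 wildtype MP arrays alone, so a difference from those groups was given by the filter, and their values are a description. Without these 2 genes, 6 of 25 fell and 1 rose. The median log2 fold change of the 25 was -0.40, against -0.11 for all genes. On 13 of the 25 every hypomorph HSC array lay below both wildtype arrays, against 22.4% of all genes, and on 1 gene every array lay above, against 13.1%.

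Among the paternally expressed genes, 3 of the 9 tested other than Peg3 fell and 0 rose. All 9 log2 fold changes were negative, with a median of -0.47, where 7607 of all 12765 genes tested were negative. Ndn encodes necdin, a growth-suppressing protein of the MAGE family. Its values were 10.77 and 10.69 in wildtype HSC and 8.00, 8.09 and 8.22 in hypomorph HSC. The groups were far apart compared with the spread within them, and the log2 fold change was -2.63 ± 0.23 (SE), 6.17-fold lower (adjusted p = 2.85e-05). Peg3, a zinc finger transcription factor, was at 5.41 and 5.29 in wildtype HSC and at 3.64, 3.16 and 2.93 in hypomorph HSC. Only the 2 wildtype HSC arrays stood above the rest of the series, whose other 11 values lay between 2.67 and 3.64. The log2 fold change of Peg3 was -2.11 ± 0.26 (SE). With no filter on low values another Peg3 probe set, with a higher mean, stood for the gene, at -0.54, and Peg3 was not called.

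Igf2, the growth factor of the insulin family that acts through the Igf1 and insulin receptors, was at 6.61 and 6.95 in wildtype HSC and at 5.68, 5.44 and 5.61 in hypomorph HSC. The groups did not overlap, and Igf2 fell by 1.20 ± 0.20 (SE) on the log2 scale (adjusted p = 0.0021). In the other groups its values lay between 5.34 and 5.66 and overlapped the hypomorph HSC arrays. Plagl1, a zinc finger transcription factor, was at 6.45 and 5.66 in wildtype HSC and at 3.48, 5.13 and 3.32 in hypomorph HSC. Its hypomorph arrays were widely spread, with the second array nearest to wildtype. It fell by 2.08 ± 0.53 (SE; adjusted p = 0.0246), and the call was lost when any 1 of the HSC arrays other than hypomorph array 2 was left out (log2 fold changes -2.66 to -1.68 over the 5 such fits). The second Plagl1 probe set, with values near 5 in every group, gave -0.20 and was not called.

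The other 6 paternally expressed genes were not called in HSC. Sgce, which encodes the membrane glycoprotein epsilon-sarcoglycan, had a log2 fold change of -1.32 (adjusted p = 0.0925), with hypomorph values of 8.59, 7.98 and 6.51 all below the wildtype values of 8.68 and 9.34. Impact, a regulator of the stress kinase GCN2, was at -0.47 and the splicing protein gene Snrpn at -0.30, both also without overlap of the arrays. Kcnq1ot1, Mest and Inpp5f, at -0.40, -0.32 and -0.22, overlapped between genotypes.

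Among the maternally expressed genes, 3 of 16 tested fell and 1 rose, and the median without Tfpi2 was -0.40. Meg3, a long noncoding RNA, was at 9.01 and 9.49 in wildtype HSC and at 6.39, 6.71 and 6.97 in hypomorph HSC. The gap between the groups exceeded 2 on the log2 scale, and the fold change was -2.56 ± 0.23 (SE), 5.91-fold lower (adjusted p = 3.26e-05). Of its 7 probe sets that passed the filter, 4 were called lower, where 3.90% of all probe sets tested were. On 3 of them the log2 fold changes ran from -3.00 to -1.51. The fourth, 1452905_at, at -3.31, passed the filter through the 2 wildtype HSC arrays alone and is a description. The other 3 had values between 4.25 and 5.91 on all arrays and changes of -0.65, -0.11 and 0.01. These probe sets report different stretches or transcripts annotated to Meg3.

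Igf2r, the receptor that takes Igf2 to the lysosome for degradation, was at 5.26 and 5.68 in wildtype HSC and at 4.67, 4.18 and 4.19 in hypomorph HSC. The groups did not overlap, and Igf2r fell by 1.12 ± 0.21 (SE; adjusted p = 0.00485). Its second probe set also fell, by 1.44 on the log2 scale (adjusted p over all probe sets 0.00319). Grb10, an adaptor protein that restrains insulin and Igf1 receptor signalling, was at 9.70 and 10.29 in wildtype HSC and at 9.11, 8.83 and 8.36 in hypomorph HSC. It fell by 1.23 ± 0.34 (SE; adjusted p = 0.0342). Gatm, the enzyme of the first step of creatine synthesis, was at 5.41 and 6.01 in wildtype HSC and at 7.58, 7.32 and 6.68 in hypomorph HSC. It rose by 1.49 ± 0.39 (SE), 2.80-fold (adjusted p = 0.0273), with every hypomorph array above both wildtype arrays.

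The calls of Gatm and Grb10 depended on which arrays were fitted, while their direction did not. The Gatm call held in 1 of 5 fits that each left out 1 HSC array, the one without hypomorph array 3, with log2 fold changes from 1.19 to 1.78. The Grb10 call was lost without hypomorph array 2, without hypomorph array 3 and without wildtype array 2, with log2 fold changes from -1.53 to -0.93, and also when arrays were centred on their medians. Without wildtype HSC array 2 the number of imprinted genes called fell from 8 to 4, namely Igf2, Meg3, Ndn and Peg3. Igf2r was at -0.91 in that fit (adjusted p = 0.0694). The calls of Ndn, Meg3 and Igf2 held in all 5 such fits. Their log2 fold changes ran from -2.68 to -2.57, from -2.81 to -2.32 and from -1.38 to -1.03. With the HSC arrays fitted by themselves, 3 genes were called, Meg3, Ndn and Peg3, where 1.10% of all genes were. Peg3 was called in all these fits, which is a description, since the filter gave its difference from wildtype HSC.

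**Figure D1:**
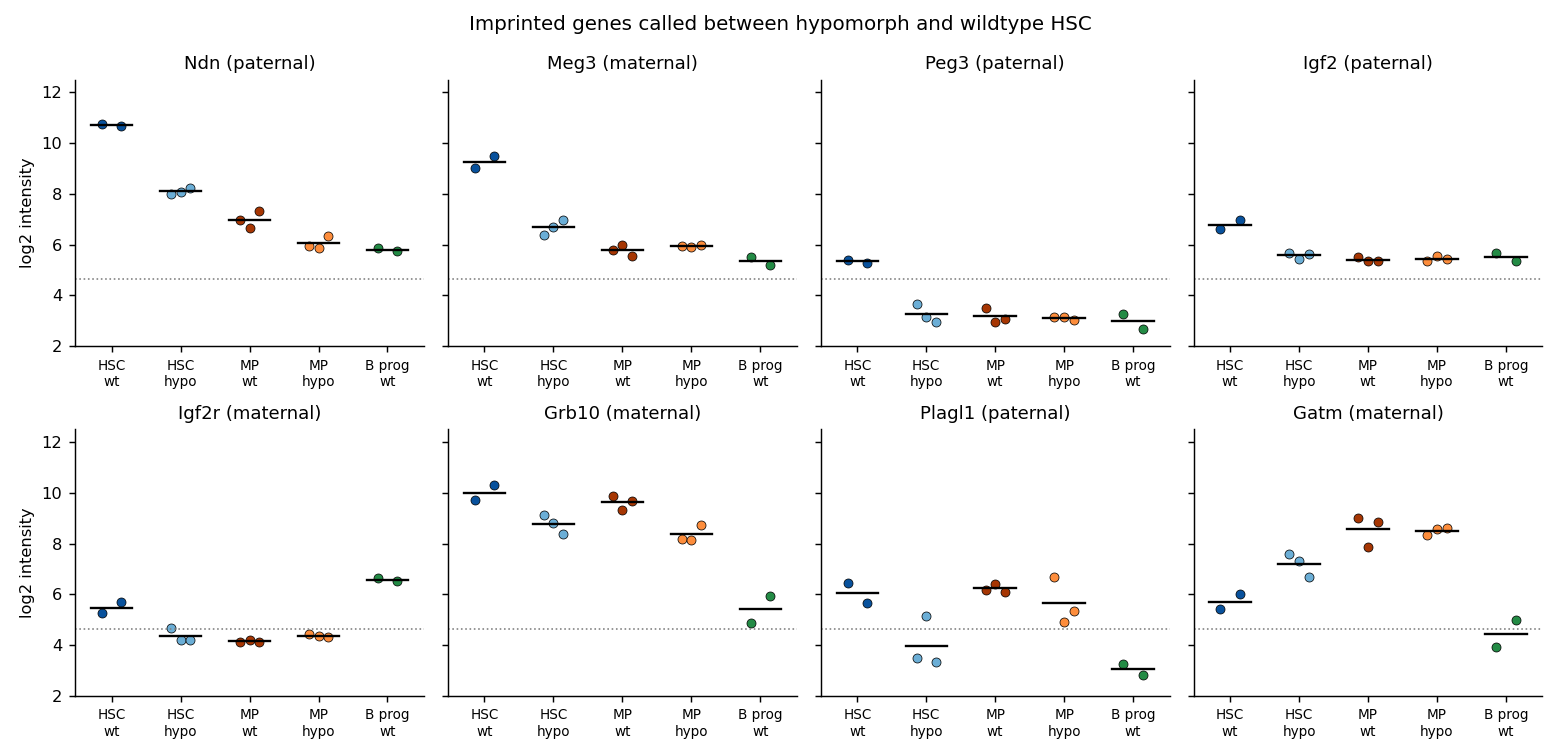
Log2 intensity (vertical axis) of the 8 imprinted genes called between hypomorph and wildtype HSC, on every array of the 5 groups, with "wt" for wildtype, "hypo" for hypomorph and "B prog" for B progenitors. Each point is 1 array, the black bar is the group mean and the dotted line is the filter value of 4.64. Ndn and Meg3 fell from group means of 10.73 and 9.25 to 8.11 and 6.69 in hypomorph HSC, and Gatm rose from 5.71 to 7.20.

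The other 12 maternally expressed genes were not called in HSC. Phlda2, a growth-restraining protein best known from the placenta, was at -1.07 (adjusted p = 0.0732), Cdkn1c at -1.01 (0.147) and the trafficking protein gene Trappc9 at -0.98 (0.0753), and in each of these 3 the arrays of the genotypes did not overlap. The remaining 9 genes lay between -0.71 for Ppp1r9a and 0.59 for Commd1. Gnas, which encodes the stimulatory G protein alpha subunit, was at -0.31 (adjusted p = 0.624).

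Markers of other cell types moved in the same comparison. Of 15 stroma and endothelium markers, 9 passed the filter, and the average over all 15 was 5.30 on both wildtype HSC arrays, 4.97 to 5.18 in hypomorph HSC, 4.48 to 4.72 in MP and 4.25 to 4.33 in B progenitors. Col1a2, Emcn and Bgn fell in hypomorph HSC, by 1.35, 1.41 and 1.00 on the log2 scale (adjusted p 0.0224, 0.0407 and 0.0470). The other 6 that passed were not called, with log2 fold changes of 0.58 for Pdgfrb, 0.16 for Fn1, 0.10 for Postn, 0.05 for Cxcl12, -0.26 for Acta2 and -0.33 for Kdr. Col1a1, Col3a1, Lepr, Pdgfra, Cdh5 and Lum did not pass the filter. The B progenitor markers averaged 4.87 to 4.94 in wildtype HSC and 4.37 to 4.52 in hypomorph HSC. Of these, Cd79b (-0.89, adjusted p = 0.0394) and Igll1 (-0.77, 0.0461) fell, and the others measured were not called. Among T and NK cell markers, Nkg7 rose by 1.88 (adjusted p = 0.000783), and the others that passed were not called. Nkg7 was at 11.08, 11.69 and 10.98 in wildtype MP. The macrophage and late erythroid markers that passed were not called. The part of these markers, and of the higher MP marker average, in the lower values of the imprinted genes was not tested.

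In MP, limma called 0 of the 27 tested imprinted genes between genotypes, where it called 0.588% of all genes tested, 0.251% lower and 0.337% higher. At an unadjusted p under 0.05 there were 5: Ndn, Sgce, Grb10, Inpp5f and Ppp1r9a, which is 18.5% of the 27 against 15.0% of all genes. The median log2 fold change was -0.07, against -0.02 for all genes. On 6 of the 27 genes every hypomorph MP array lay below every wildtype array, against 16.3% of all genes, and on 2 genes above, against 11.4%. The lower 6 were Ndn, Sgce, Inpp5f, Grb10, Ppp1r9a and Gnas. Of the genes that fell in HSC, Grb10 was at 9.87, 9.32 and 9.67 in wildtype MP and at 8.18, 8.16 and 8.75 in hypomorph MP, a log2 fold change of -1.26 ± 0.30 (SE; adjusted p = 0.105). That is about the size seen in HSC, and the groups did not overlap, yet it was not called in MP. Sgce had the largest difference in MP on the probe sets used, with 6.88, 6.72 and 7.16 in wildtype and 5.16, 5.04 and 5.56 in hypomorph arrays (-1.67 ± 0.42 SE; adjusted p = 0.127). Fitting the MP arrays by themselves called 2 genes, Grb10 and Sgce, where 1.28% of all genes were called. Weighting the arrays by their estimated quality called 12, 8 lower and 4 higher, where 33.5% of all genes were called. Weights estimated by the same method over all probe sets that passed the filter ran from 0.296 to 7.43.

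**Figure D2:**
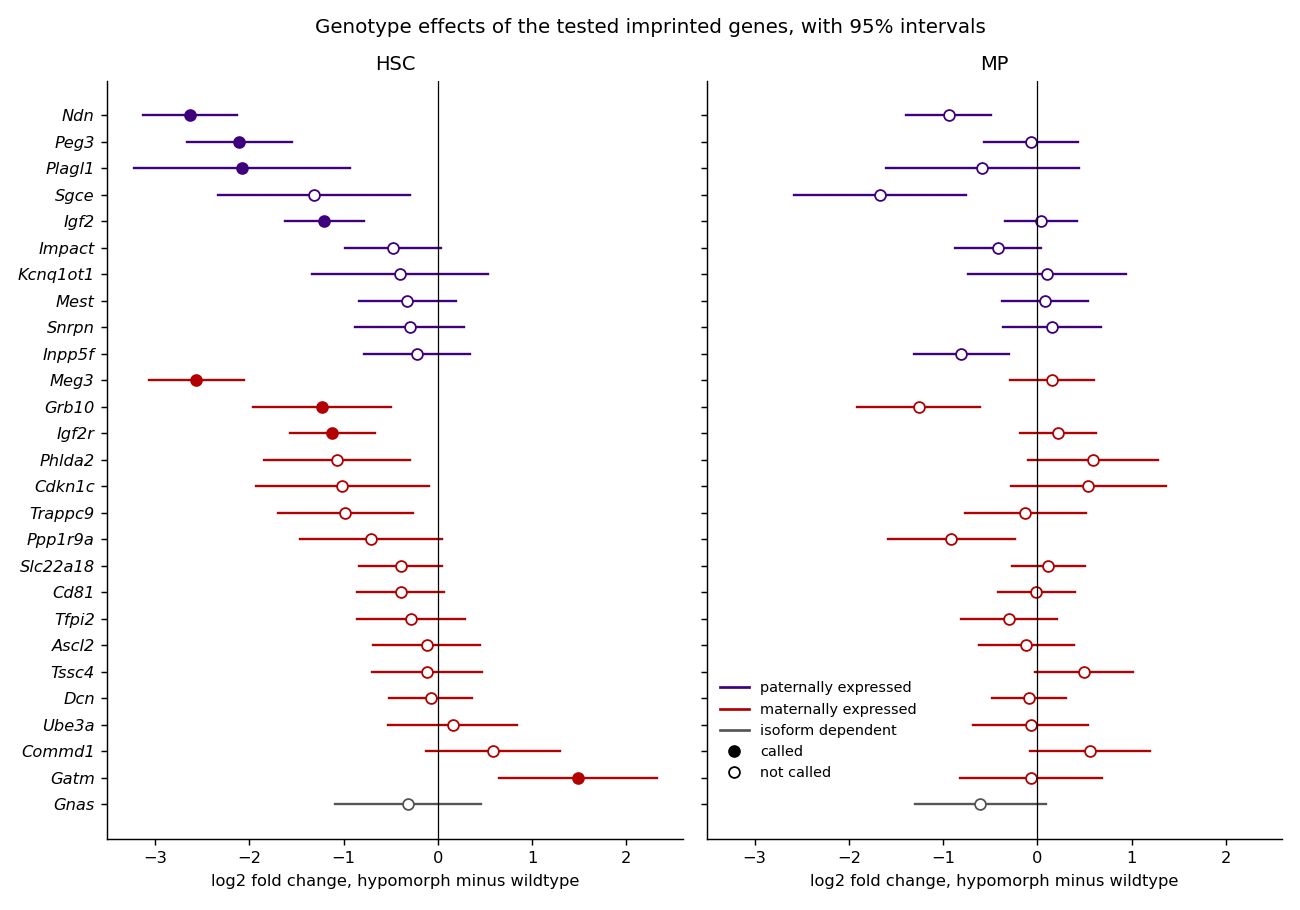
Log2 fold change of hypomorph minus wildtype (horizontal axis) for the 27 tested imprinted genes in HSC (left) and in MP (right). Points are estimates from limma, lines their 95% intervals, filled points are called, and colours give the parental allele that is known to be expressed. All 10 paternally expressed genes lie below 0 in HSC, as do 7607 of all 12765 genes tested, and the value of Peg3 was given by the filter. No gene is called in MP on the probe set used.

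Ndn gave different answers on its different probe sets. It has 8, of which 5 passed the filter, and the one with the highest mean, 1437853_x_at, stood for the gene above. On that probe set the MP values were 6.98, 6.64 and 7.34 in wildtype and 5.94, 5.85 and 6.35 in hypomorph arrays. The log2 fold change was -0.94 ± 0.21 (SE; adjusted p = 0.0687), which was not called. The other 4 probe sets were all called lower in hypomorph MP, where 0.217% of all probe sets tested were. Thus Ndn was lower in hypomorph MP on all 5 probe sets and was called on 4.

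On probe set 1455792_x_at, Ndn was at 7.02, 6.06 and 7.70 in wildtype MP and at 2.65, 3.00 and 3.81 in hypomorph MP. The fold change was -3.77 ± 0.38 (SE) on the log2 scale, with an adjusted p of 0.000372 over all 22122 probe sets tested. Probe set 1435382_at gave -3.78 (adjusted p = 0.00141), with 7.46, 6.58 and 7.84 in wildtype and 3.36, 2.97 and 4.22 in hypomorph arrays. Probe set 1435383_x_at gave -3.86 (adjusted p = 0.00153) and 1415923_at gave -1.95 (adjusted p = 0.0379). On each of these 4 probe sets the hypomorph MP arrays lay below every wildtype MP array and within or near the range of the B progenitors. All wildtype MP arrays of these 4 probe sets were above the filter value and all hypomorph MP arrays below it.

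In HSC all 5 probe sets of Ndn were lower in every hypomorph array than in both wildtype arrays, and 3 of them were called. The log2 fold changes were -2.89 (adjusted p = 0.00152) on 1455792_x_at, -1.74 (0.0207) on 1415923_at, -1.64 (0.0709) on 1435383_x_at and -1.32 (0.125) on 1435382_at, beside the -2.63 given above. On 1455792_x_at the values were 11.74 and 11.64 in wildtype HSC and 8.89, 8.92 and 8.61 in hypomorph HSC. Affymetrix gives the suffix _x_at to probe sets with probes that may also match other sequences, and 3 of the 5 carry it, including the one with the highest mean.

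**Figure D3:**
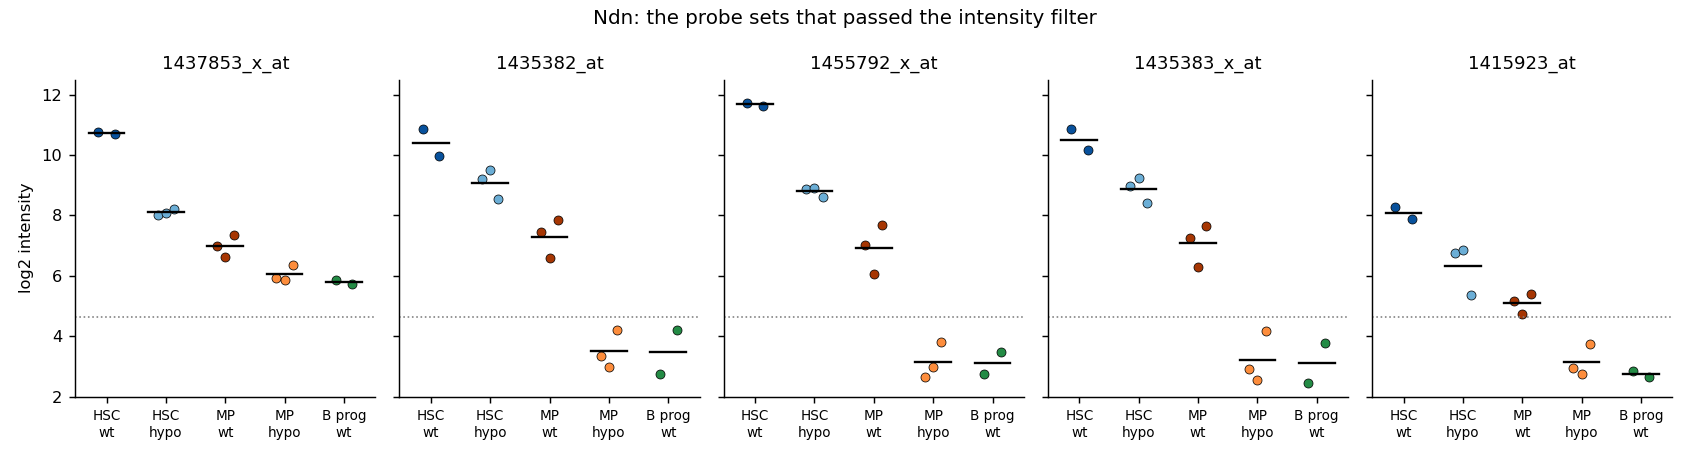
Log2 intensity (vertical axis) of Ndn on each array of the 5 groups, for the 5 probe sets that passed the filter, in 1 panel each. Points are arrays, black bars group means and the dotted line the filter value of 4.64. In hypomorph MP the mean is 6.04 on 1437853_x_at, the probe set that stood for the gene, and between 3.15 and 3.52 on the other 4.

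The genotype effects in HSC and MP were compared directly as the HSC effect minus the MP effect. Of the 27 genes, 5 were called, or 4 of the 25 without Peg3 and Tfpi2, all with a lower effect in HSC, where 2.37% of all genes tested were called in that direction and 3.27% in the other. Meg3 differed most, with a log2 fold change of -2.56 in HSC and 0.16 in MP and a difference of -2.72 ± 0.31 (SE; adjusted p = 0.000738). The difference was -1.34 ± 0.28 for Igf2r (adjusted p = 0.0166) and -1.24 ± 0.26 for Igf2 (0.0171). For Peg3 it was -2.04 ± 0.35, a description. In these 4 genes the wildtype MP arrays were within or below the range of the hypomorph HSC arrays. Igf2, for example, was at 5.51, 5.35 and 5.34 in wildtype MP and at 5.35, 5.54 and 5.44 in hypomorph MP. All MP arrays of Igf2r and Peg3 lay below the filter value. Whether these 4 genes had signal left to fall in MP was not tested. The Igf2 call held in 7 of 11 fits that each left out 1 array and was lost without hypomorph HSC array 2, wildtype HSC array 2, hypomorph MP array 2 or wildtype MP array 3 (-1.42 to -1.07). The Igf2r call held in 7 of 11 and was lost without hypomorph HSC array 2, wildtype HSC array 2, or wildtype MP array 1 or 3 (-1.55 to -1.13). The number called fell to 3 without hypomorph HSC array 2, without wildtype HSC array 2 or without wildtype MP array 3.

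For Ndn the difference between the effects changed sign with the probe set. It was -1.68 ± 0.31 (adjusted p = 0.00979) on the probe set with the highest mean, and 0.88, 0.21, 2.45 and 2.23 on 1455792_x_at, 1415923_at, 1435382_at and 1435383_x_at, none of them called (lowest adjusted p = 0.0585; 1.62% of all probe sets were called lower). Averaging its probe sets gave 0.82. For Grb10 the difference was 0.03 with a 95% interval from -0.95 to 1.01, so the effects in HSC and MP could differ by up to about that much in either direction. Gatm rose in HSC and was at -0.07 in MP, and the difference of 1.55 was not called (adjusted p = 0.0966).

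Across wildtype cell types, most differences between HSC and the other cells were towards lower values outside HSC. In wildtype MP, 11 of 27 imprinted genes were lower than in wildtype HSC and 3 were higher, where 18.0% and 13.8% of all genes tested were. Without Peg3 and Tfpi2, 10 of 25 were lower and 2 higher. The paternally expressed Ndn (-3.74), Peg3 (-2.17), Sgce (-2.08) and Igf2 (-1.38) were lower. The maternally expressed Cdkn1c (-3.98), Meg3 (-3.47), Phlda2 (-3.14), Ppp1r9a (-1.70), Igf2r (-1.32), Trappc9 (-1.25) and Cd81 (-0.84) were lower too. The 3 that were higher in MP are maternally expressed: Gatm (2.87), the ubiquitin ligase gene Ube3a (1.07) and Tfpi2 (0.93), a protease inhibitor that passed the filter only through 2 wildtype MP arrays. Without wildtype HSC array 2 the calls of Sgce (-1.75), Trappc9 (-0.82) and Tfpi2 (0.78) were lost, and without wildtype HSC array 1 those of Cd81 (-0.73) and Ube3a (0.64). The Tfpi2 and Ube3a calls were also lost without wildtype MP array 1 or 3. Centring the arrays on their medians removed a shift of -0.148 from this comparison and -0.156 from the difference of genotype effects, and less than 0.1 from the others. It turned the direction of no gene called here, and split the genes called for the difference of effects into 1 higher and 5 lower.

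Among hypomorph cells, 6 imprinted genes were lower in MP than in HSC and 3 were higher, where 7.47% and 4.18% of all genes tested were. Without Tfpi2 2 were higher. Sgce (-2.44), Cdkn1c (-2.43), Ndn (-2.06), Ppp1r9a (-1.91), Phlda2 (-1.48) and Meg3 (-0.75) were lower, and Plagl1 (1.67), Gatm (1.32) and Tfpi2 (0.92) were higher. The genotype comparison in HSC and this comparison share the hypomorph HSC arrays. Igf2, Igf2r and Peg3, called in the wildtype comparison, were at -0.14, 0.02 and -0.13 here and were not called. Without hypomorph MP array 1 the number called fell from 9 to 5, with Plagl1 at 1.16, Gatm at 1.40, Tfpi2 at 0.87 and Meg3 at -0.75 not called. The Gatm and Meg3 calls held only without hypomorph HSC array 1, the Tfpi2 call only without hypomorph HSC array 3 or hypomorph MP array 3, and the Plagl1 call only without array 2 of either cell type.

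In B progenitors, 15 of 27 imprinted genes were lower than in wildtype HSC and 1 was higher, where 30.2% and 14.9% of all genes tested were. Without Peg3 and Tfpi2 it was 14 of 25. The largest differences were those of Ndn, Ppp1r9a and Grb10. Ppp1r9a, which encodes the actin-binding phosphatase regulator neurabin, was at 8.99 and 9.91 in wildtype HSC, at 8.47, 9.17 and 8.58 in hypomorph HSC, at 7.62, 7.72 and 7.90 in wildtype MP, at 7.08, 6.30 and 7.12 in hypomorph MP, and at 5.01 and 4.13 in B progenitors. Its level thus stepped down from HSC to MP to B progenitors with no overlap between the wildtype groups, and was 29.4-fold lower in B progenitors than in wildtype HSC (-4.88 ± 0.38 SE; adjusted p = 2.80e-07).

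Ndn was at 5.88 and 5.73 in B progenitors, 30.4-fold below wildtype HSC (-4.92 ± 0.25 SE; adjusted p = 4.44e-09). Grb10 was at 4.87 and 5.95 there, 24.0-fold below wildtype HSC (-4.59 ± 0.37 SE; adjusted p = 3.61e-07). Grb10 did not differ by a called amount between wildtype MP and HSC (-0.37), and was 18.5-fold lower in B progenitors than in wildtype MP. The other genes lower in B progenitors than in HSC were Meg3 (-3.90), Phlda2 (-3.20), Plagl1 (-3.01), Peg3 (-2.38), Trappc9 (-2.13), Sgce (-1.96), Cdkn1c (-1.73), Impact (-1.71), Igf2 (-1.28), Gatm (-1.27), Cd81 (-1.16) and the transporter gene Slc22a18 (-0.72). Calls were lost for Gatm (-0.73) and Sgce (-1.49) without B progenitor array 1 and (-0.97 and -1.63) without wildtype HSC array 2. They were lost for Cdkn1c (-1.35) and Slc22a18 (-0.54) without B progenitor array 2 and (-1.40 and -0.55) without wildtype HSC array 1.

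Igf2r ran the other way. It was at 6.64 and 6.52 in B progenitors, above both wildtype HSC arrays and all MP arrays, which lay between 4.11 and 4.44. It was higher than in wildtype HSC by 1.11 ± 0.23 (SE; adjusted p = 0.00129) and higher than in wildtype MP by 2.43 ± 0.21 (SE; adjusted p = 6.62e-07). On its second probe set the B progenitors, at 5.46 and 5.93, were in the range of wildtype HSC (5.73 and 5.54), and above MP (3.37 to 3.74), so the difference from HSC was not called on that probe set, where 17.2% of all probe sets were higher.

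Between B progenitors and wildtype MP, 8 imprinted genes were lower and 2 higher, where 24.7% and 11.2% of all genes tested were. Without Tfpi2 7 were lower. Gatm showed the second largest difference after Grb10 (-4.21): it was at 9.02, 7.85 and 8.86 in wildtype MP, at 8.34, 8.58 and 8.61 in hypomorph MP and at 3.91 and 4.98 in B progenitors, 17.6-fold lower (-4.13 ± 0.39 SE; adjusted p = 1.57e-06). Plagl1 (-3.18), Ppp1r9a (-3.17), Impact (-1.31), Tfpi2 (-1.28), Ndn (-1.18) and Ascl2 (-0.77) were also lower. Ascl2, a basic helix-loop-helix transcription factor, kept its call in 1 of 5 fits that each left out 1 array, the one without B progenitor array 1, with log2 fold changes from -1.13 to -0.41. Cdkn1c was higher in B progenitors (2.26), together with Igf2r.

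Genes that share an imprinted locus did not all follow one pattern. The Kcnq1 domain, in which the paternally expressed noncoding RNA Kcnq1ot1 silences maternally expressed neighbours in cis, has 7 of the 42 genes, and all 7 were tested. In hypomorph HSC limma called 0 of the 7, with 2 at an unadjusted p under 0.05, where 26.2% of all genes were. All 7 log2 fold changes were negative (median -0.40), where 7607 of all 12765 genes tested were. In hypomorph MP limma called 0, with 0 at an unadjusted p under 0.05, where 15.0% of all genes were. There 5 log2 fold changes were positive (median 0.12), where 6107 of all 12765 genes tested were. Kcnq1ot1 itself was at 7.22 ± 1.4 (SD, n = 2) in wildtype HSC, 6.82 ± 0.43 (n = 3) in hypomorph HSC, 7.12 ± 0.28 (n = 3) in wildtype MP and 7.22 ± 0.18 (n = 3) in hypomorph MP. Those groups overlapped throughout.

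Within the Kcnq1 domain the cell types separated Cdkn1c and Phlda2 from the rest on the probe sets that stood for the genes. Cdkn1c was at 8.23 ± 0.46 (SD, n = 2) in wildtype HSC, 7.22 ± 0.62 (n = 3) in hypomorph HSC, 4.25 ± 0.53 (n = 3) in wildtype MP, 4.80 ± 0.57 (n = 3) in hypomorph MP and 6.51 ± 0.54 (n = 2) in B progenitors. It was thus lowest in MP and intermediate in B progenitors. Phlda2 was at 7.47 ± 0.14 in wildtype HSC, 6.40 ± 0.82 in hypomorph HSC, 4.32 ± 0.15 in wildtype MP, 4.92 ± 0.34 in hypomorph MP and 4.27 ± 0.017 in B progenitors. It was high in HSC only, and MP and B progenitor values lay near the filter value. The tetraspanin gene Cd81, an abundant surface protein of blood cells, had a narrower range, from 11.60 ± 0.16 in wildtype HSC to 10.44 ± 0.14 in B progenitors. Slc22a18 ran from 6.63 ± 0.24 in wildtype HSC to 5.91 ± 0.25 in B progenitors on the probe set used. Its second probe set, 1417809_at, had a wider range. There Slc22a18 was at 7.03 and 7.65 in wildtype HSC and at 6.64, 6.63 and 6.23 in hypomorph HSC. It was at 5.42, 5.74 and 5.49 in wildtype MP and at 4.98 and 5.05 in B progenitors. Tssc4 was not called in any comparison, and Ascl2 had no value above 4.97 on the probe set used.

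**Figure D4:**
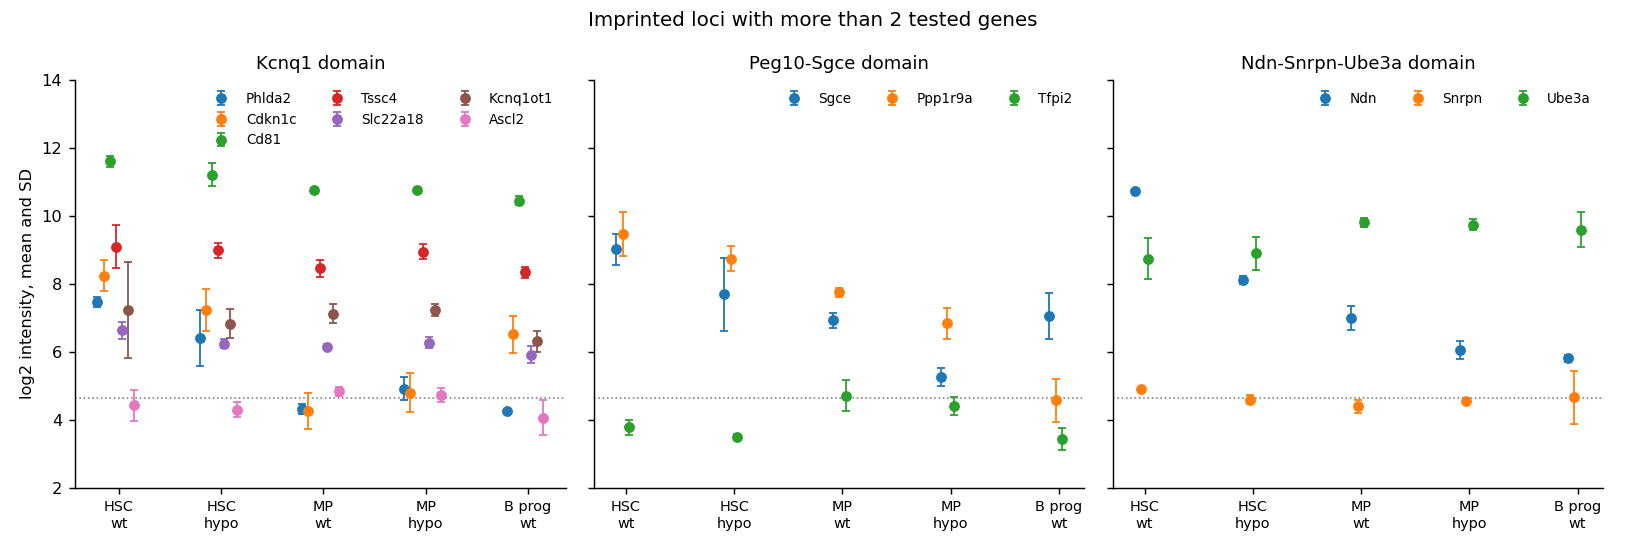
Mean log2 intensity (vertical axis) with its SD in the 5 groups for the 3 imprinted loci with more than 2 tested genes, in 1 panel each; points of a group are set side by side, and the dotted line is the filter value of 4.64. Groups hold 2 arrays (wildtype HSC and B progenitors) or 3. Cdkn1c and Phlda2 drop from 8.23 and 7.47 in wildtype HSC to 4.25 and 4.32 in wildtype MP, while Ube3a is higher in MP (9.80) than in wildtype HSC (8.74).

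Of the 5 genes of the Peg10 and Sgce domain, 3 were tested. Sgce was at 9.01 ± 0.47 in wildtype HSC, 7.69 ± 1.1 in hypomorph HSC, 6.92 ± 0.22 in wildtype MP, 5.25 ± 0.27 in hypomorph MP and 7.04 ± 0.68 in B progenitors. Ppp1r9a, at the same locus but maternally expressed, fell from HSC to MP as well, and both genes had negative genotype effects in HSC (-1.32 and -0.71) and in MP (-1.67 and -0.91) of which none was called. Tfpi2 went the other way between cell types, at 4.71 ± 0.45 in wildtype MP against 3.78 ± 0.22 in wildtype HSC. Peg10 and Asb4 did not pass the filter.

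In the domain of Snrpn and Ube3a, which holds 6 of the 42 genes, Ndn, Snrpn and Ube3a were tested, and Magel2, Mkrn3 and Peg12 did not pass the filter. Ndn was the one called between genotypes. Snrpn, here only on a probe set of its own, because probe sets shared with Snurf were left out, ran from 4.11 to 5.20 over all arrays and was not called in any comparison. Ube3a was at 8.31 and 9.16 in wildtype HSC, 8.36, 9.31 and 9.01 in hypomorph HSC, and between 9.59 and 9.93 in MP. On this probe set the genotypes overlapped in both cell types. The call of the higher value in wildtype MP than in HSC (adjusted p = 0.0204) was lost without any of several single arrays, as given above. On 1416682_at all hypomorph HSC arrays (6.05, 5.85 and 6.11) lay above the wildtype arrays (5.21 and 5.1). They also did on 1416681_at (6.24, 6.12 and 5.63 against 5.56 and 5.32). On 1431224_at they lay below (5.02, 4.82 and 5.02 against 5.04 and 5.07).

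At 4 other shared loci only 1 gene could be tested. Meg3 fell in hypomorph HSC, whereas its neighbours Dlk1, at most 4.90 on any array, and Rian, at most 4.71, did not pass the filter. Peg3 was lower in hypomorph HSC, as described above, while its neighbours Usp29 and Zim1 had no value above 3.37 and 2.94. Igf2 fell, and H19 was not analysed here. Commd1, known from copper transport, was at 0.59 in HSC and 0.56 in MP and was not called, and Zrsr1 was not analysed here.

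Over all 7 comparisons, 8 tested genes were never called on the probe set that stood for them: Commd1, Dcn, Gnas, Inpp5f, Kcnq1ot1, Mest, Snrpn and Tssc4. Their log2 fold changes lay between -0.92 and 0.59, and their lowest adjusted p was 0.0527. Other probe sets of these genes are not all described here. On another probe set Inpp5f, which encodes an inositol phosphatase, was called between the HSC genotypes. On 1447757_x_at it was at 4.53 and 4.93 in wildtype HSC and at 5.49, 7.20 and 7.75 in hypomorph HSC, higher by 2.08 ± 0.49 (SE; adjusted p over all probe sets 0.0198), where 4.86% of all probe sets rose. On 1447757_x_at it was also at 7.23, 6.71 and 7.15 in wildtype MP and at 6.64 and 7.15 in B progenitors. On the probe set that stood for the gene it was at 7.94 and 8.55 in wildtype and at 8.03, 8.07 and 8.00 in hypomorph HSC.

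Genes that write, read or protect DNA methylation and imprints were looked at as a list of 27, of which 23 were tested. In hypomorph HSC 3 rose and 0 fell, where 5.37% and 5.44% of all genes did: Uhrf1, the partner that brings Dnmt1 to replicated DNA, by 2.29 ± 0.35 (SE; adjusted p = 0.00116), the chromatin remodeller gene Hells by 2.12 ± 0.22 (0.000102) and the histone methyltransferase gene Ezh2 by 1.28 ± 0.24 (0.00500). In hypomorph MP limma called 0 of the 23, 4 of them at an unadjusted p under 0.05, where 15.0% of all genes were, and their log2 fold changes had a median of -0.28. In wildtype MP 10 of the 23 were higher than in wildtype HSC and 0 lower, among them the same 3 genes at 1.97, 2.19 and 1.52, where 13.8% of all genes were higher and 18.0% lower. In B progenitors 11 were higher and 3 lower than in wildtype HSC, against 14.9% and 30.2% of all genes.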

How the data were processed

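The deposited values are log2 intensities that the authors computed with RMA, per the submitters' processing notes; the sources used here do not give its version. The log2 scale is inferred, because RMA gives log2 values and these run from 1.93 to 14.99. The table holds 24 columns, 13 for all arrays and 11 for a second normalization of the HSC and MP arrays, which served as an alternative and never as replicates (columns of the same label correlated at 0.999 or more). Of 45101 probe sets, 34958 carried 1 symbol in the platform annotation, and only these were used. All 13 arrays were fitted in 5 groups with limma 3.58.1 in R 4.3.3 (lmFit, eBayes, 8 residual degrees of freedom), adjusted by Benjamini-Hochberg over all genes tested. A second fit took every probe set. The steps were tested on simulated data. The small number of arrays limits the precision. The imprinted genes, marker lists and tests were chosen with earlier results of these data known. Named are the genes called in any comparison and all tested genes of shared loci; Inpp5f's second probe set was singled out after its values were seen.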

Additional observations from a re-analysis of the deposited data

Results flagged for a closer look

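For 4 imprinted genes the genotype effect differed between HSC and MP by a test of the difference itself. The difference of log2 fold changes, HSC minus MP, was -2.72 for Meg3, -1.68 for Ndn, -1.34 for Igf2r and -1.24 for Igf2 (limma, adjusted p from 0.000738 to 0.0171). Peg3, at -2.04, is a description, since it passed the filter only through wildtype HSC; its MP arrays lay between 2.95 and 3.51. The value for Ndn holds for 1 of its 5 probe sets. In Meg3, Igf2r and Igf2 the wildtype MP arrays already lay within or below the range of the hypomorph HSC arrays. The MP arrays of Igf2r, between 4.11 and 4.44, were all below the filter value. Whether Meg3, Igf2r and Igf2 had signal left to fall in MP was not tested.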

How the results depend on the processing

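The number of imprinted genes called between genotypes in HSC, 8, became 4 with a filter at the 75th percentile, 3 with only the arrays compared (Meg3, Ndn and Peg3), 5 with the replicate number as a block, and 4 to 8 with 1 array left out, of which 4 to 6 were among the original 8. In MP, where 0 was called, 12 were with array weights, 1 with every probe set, 1 with the mean of probe sets, 2 with only the arrays compared, and 0 to 1 with 1 array left out, the 1 being Ndn without wildtype array 2. With array weights 33.5% of all genes were called in MP. The number whose effects differed, 5, became 2 with the filter at the 75th percentile, 9 with array weights and 3 to 7 with 1 array left out. MP minus HSC in hypomorph cells, at 9, became 5 to 7 with 1 array left out. The cause of these changes was not tested, apart from the fewer genes or arrays that a filter or a left-out array brings. Peg3, where it is counted in HSC, is a description, as given above.

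Some signs turned. Another probe set gave 0.15 for Impact in B progenitors against MP (1446750_at), -0.059 for Ube3a in wildtype MP against HSC (1431224_at) and 0.64 for Trappc9 in B progenitors against HSC (1445611_at). For Meg3, 1452906_at gave 0.23 in B progenitors against HSC, 0.01 between genotypes in HSC and 0.071 in hypomorph MP against HSC, where 1426758_s_at gave 0.16 and 1429257_at 0.014. For Ndn the difference of effects was 0.82 with the mean of probe sets, and 0.21, 2.45, 2.23 and 0.88 on its other probe sets. The choices of each other probe set, and of a probe set before the filter, were added after seeing the data. Peg3 was not called without a filter, when a probe set that gave -0.54 stood for it.

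Correlations between the deviations of arrays with the same replicate number ran from -0.198 to 0.301. In a group of 2 arrays the deviations mirror each other, so these correlations cannot tell whether arrays of the same number share mice. The Y-linked gene Kdm5d was at 6.18, 3.28 and 6.09 in hypomorph HSC arrays 1 to 3. In hypomorph MP arrays 1 to 3 it was at 7.07, 2.3 and 5.63. Whether such arrays share mice was not tested. The block gave 5 and 0 calls in the genotype comparisons of HSC and MP. Single genes kept direction and side of the threshold in 816 of 857 other settings and in 438 of 502 with 1 array left out. Both totals include genotype effects that were not called at first and count as kept when they stayed so. A call was lost in 27 cases with another setting and in 59 with 1 array left out. No detection calls were used, which limits dim genes.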

Other observations

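A further 43 imprinted genes that are not among the 42 were looked at in the same fit, and 24 of them were tested. In hypomorph HSC and in hypomorph MP limma called 0 of the 24, where 10.8% and 0.588% of all genes tested were called. At an unadjusted p under 0.05 there were 2 and 3 of the 24, against 26.2% and 15.0% of all genes. In wildtype MP 3 were lower and 1 higher than in wildtype HSC, against 18.0% and 13.8% of all genes. In B progenitors 8 were lower and 4 higher than in wildtype HSC, against 30.2% and 14.9%. Their median log2 fold change in hypomorph HSC was -0.12, against -0.11 for all genes.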
